A study of Mus musculus with 4 samples.

Results

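Ribosome biogenesis genes, the genes that make and assemble ribosomes, were followed by RNA sequencing in the mouse mesenchymal line C3H10T1/2, whose cells can become bone, cartilage or fat cells. The set held 47 genes taken by symbol from a list that covers transcription of ribosomal RNA, its modification, and the assembly of both ribosomal subunits. All 47 were found once each among the 54532 genes of the count table, and all 47 were among the 13233 genes with a mean of at least 1 CPM (each count relative to its library's scaled total) that were compared. The lowest count of any member in any library was 314.

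The study asked what DNMT1, the enzyme that copies DNA methylation to the new strand, does in these cells before and during osteoblast (OB) differentiation. Transfection lasted 48 h and used either control siRNA or DNMT1 siRNA. The cells were then left untreated, or kept for 3 days in OB medium with ascorbic acid at 50 µM, β-glycerophosphate at 10 mM and dexamethasone. The 4 groups were control (control siRNA, untreated), siDNMT1 (DNMT1 siRNA, untreated), OB (control siRNA, OB medium) and siDNMT1_OB (DNMT1 siRNA, OB medium). Each group held 1 library, so differences could not be checked against replicates and are given without p-values. All 4 groups come from 1 cell line, and an siRNA lowers a transcript without removing it. Per the study, RNA was taken before induction or after 3 days of it. No untreated library matches the induced ones in time. In the OB comparisons the medium therefore cannot be told apart from 3 more days in culture and since transfection.

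The libraries held 22296046 to 27367792 counts. Dnmt1 itself had 265 CPM in control and 132 in siDNMT1. After induction it had 85.4 CPM in OB and 93.1 in siDNMT1_OB. The untreated pair followed its labels, with siDNMT1 against control at −1.01 on the log2 scale. The induced pair did not, since the library labelled siDNMT1_OB was 0.13 above OB on the log2 scale (95% interval 0.04 to 0.21). This library is therefore called by its label throughout, and every direction drawn from it carries that limit. Other measures that the study reports run the way of the labels. By western blotting, DNMT1 protein was lower with the siRNA after 8 days in osteogenic medium, later than the 3 days of these libraries. By bisulfite sequencing, regions that lost methylation with the siRNA outnumbered those that gained it, more so after OB induction. Neither is a value of these RNA libraries. Of the markers of the labelled cell type, the mesenchymal stem cell list summed to 1717 to 2429 CPM. Some markers of other types were at 0 in all 4 libraries: Acan for cartilage, Cd36, Lep and Plin1 for fat, Myf5, Myh3 and Myod1 for muscle, and Tyrobp for leukocytes. Of the markers that reached a mean CPM of 1, those higher in OB than in control were 4 of 5 for cartilage, 4 of 4 for fat, 2 of 6 for osteoblasts, 1 of 2 for leukocytes and the 1 for endothelium. In siDNMT1 against control the counts above 0 were 5, 3, 4, 1 and 1 in that order, and in siDNMT1_OB against OB 3, 2, 5, 1 and 1. The 4 osteoblast markers under that level were Alpl, Bglap and Sp7, with at most 8 counts in any library, and Ibsp, with 1, 3, 6 and 17 counts in control, siDNMT1, OB and siDNMT1_OB. The summed osteoblast list, led by collagen genes, was 19177 to 22270 CPM, and the part of these cell type markers in the members' values was not tested. The fat list summed to 41.2 and 45.1 CPM in the untreated and 101 and 92.9 in the induced libraries (control siRNA first), cartilage to 417 to 760, muscle to 1.60 to 2.12, leukocytes to 10.0 to 12.5 and endothelium to 2.65 to 7.88.

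Ribosomes are built in the nucleolus. RNA polymerase I (Pol I) makes a long precursor RNA, small nucleolar ribonucleoproteins (snoRNPs) guide its chemical modification and cutting, and many assembly factors fold and trim it into the small and the large subunit before export. The transcription factor MYC switches on many of these genes, in part through the E-box sequence CACGTG, and dividing cells make more ribosomes than cells that leave the cycle.

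Short stretches around each E-box are shown because MYC is known to bind this sequence. The motif CACGTG reads the same on both strands, so 1 search covers both. RefSeq promoters (GRCm38.p6, 250 bases before and 50 after each gene's start) were matched by symbol for 41 of the 47 members. Fbl, Npm1, Bop1, Rrp12, Rrs1 and Myc had no entry. The motif was found in 9 of the 41 (22.0%), beside 8.09% of 27025 genes with such a sequence and 6 of 58 ribosomal protein genes (10.3%). In the 250 bases before the start alone it was in 3 of 41 members (7.32%), close to the 6.86% of all genes, and in 6 of the 9 members the motif lay past the start. The windows below run 5′ to 3′ on the gene's strand with the motif in capitals, and Rrn3 carried the motif at 2 places.
Rrn3 (chr16:13780472-13780501): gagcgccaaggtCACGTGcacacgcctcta
Rrn3 (chr16:13780639-13780668): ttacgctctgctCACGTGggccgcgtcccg
Imp4 (chr1:34439696-34439725): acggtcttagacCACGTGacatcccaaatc
Nop2 (chr6:125131811-125131840): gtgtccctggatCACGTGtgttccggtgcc
Wdr43 (chr17:71616220-71616249): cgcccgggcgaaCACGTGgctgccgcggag
Utp20 (chr10:88826765-88826789, minus strand): cggcactaactaCACGTGaggaaaa
Tsr1 (chr11:74898092-74898121): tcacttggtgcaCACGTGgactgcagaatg
Ltv1 (chr10:13193092-13193121, minus strand): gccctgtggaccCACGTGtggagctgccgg
Pes1 (chr11:3963965-3963994): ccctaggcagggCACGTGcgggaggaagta
Mybbp1a (chr11:72441355-72441376): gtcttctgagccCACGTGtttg

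Members with and without the motif had similar medians in OB against control. The 9 carriers had a median of −0.69 on the log2 scale and the 32 with a promoter but no motif had −0.76. A match describes the letters of the window only.

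OB induction was accompanied by lower levels of nearly the whole set. Of the 47 members, 45 were lower in OB than in control, and all 45 had a counting interval below 0. Over all genes compared, 49.3% were lower and 37.3% had such an interval. The members' median log2 fold change was −0.77, where the median of all genes was 0.01. A decrease of 0.5 or more on the log2 scale was seen in 34 members, against 18.3% of all genes, and a decrease of 1 or more, the size limit used in the study, in 7 members, against 7.1% of all genes. Summed over the set, the untreated libraries held 5291 CPM (control) and 5153 (siDNMT1), while the induced ones held 3205 (OB) and 3839 (siDNMT1_OB), so the OB library was the lowest of the 4. Exons of 18 members overlap those of another gene, and the other 29 had a median of −0.74. In these bulk samples fewer cells of a type and less RNA per cell cannot be told apart. 

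As the libraries are labelled, the same days in OB medium were accompanied by a smaller difference with DNMT1 siRNA. In the library labelled siDNMT1_OB, 41 of 47 members were lower than in siDNMT1, beside 49.9% of all genes, and the median was −0.34. Only 13 members were lower by 0.5 or more, against 11.4% of all genes, and none by 1 or more, against 2.71%. The difference between the 2 OB effects (with DNMT1 siRNA minus with control siRNA) was above 0 in 44 members, beside 50.6% of all genes, and its counting interval lay above 0 in 39, beside 27.1% of all genes. The median of that difference was 0.38. It was 0.5 or more in 14 members, against 11.5% of all genes, and −0.5 or less in 0 members, against 11.0%. This rests on the labels of the induced pair, which Dnmt1 mRNA did not follow. The methylation and DNMT1 protein measures that the study reports run the way of the labels, the protein at a later day. With those 2 labels exchanged, a setting added after the data were seen, the medians were −0.49 with control siRNA and −0.64 with DNMT1 siRNA, and the median difference was −0.14. The lower levels after OB medium held either way, in 95.7% and 87.2% of members as labelled and in 95.7% and 91.5% with the labels exchanged.

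**Figure D1:**
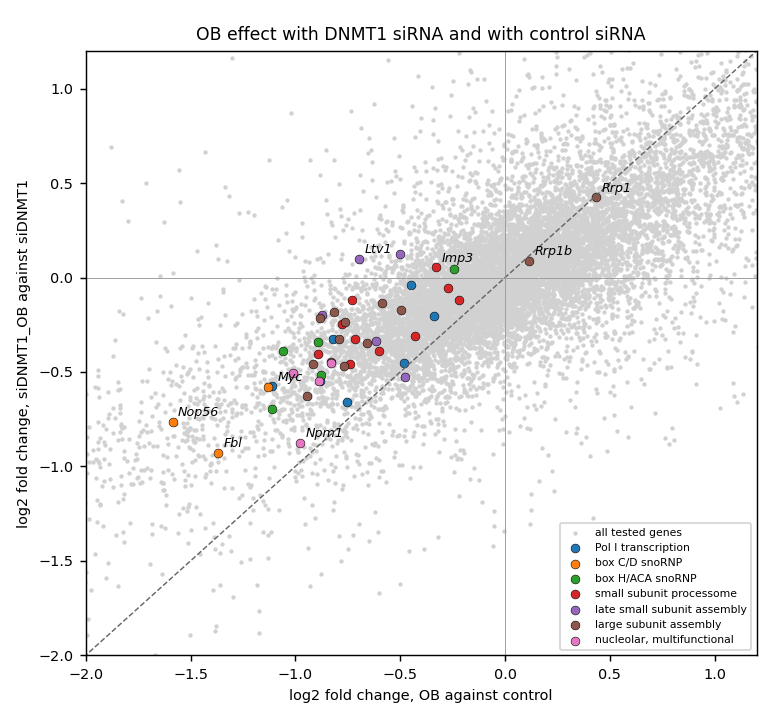
Log2 fold change of each gene in OB against control (horizontal axis) and in siDNMT1_OB against siDNMT1 (vertical axis). Coloured points are the 47 members by role, grey points are all genes compared that fall inside the axes, and the dashed line marks equal effects. In 44 of 47 members the point lies above the dashed line, and Nop56 lies furthest to the left.

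The 2 OB effects share no library. Across the 47 members they had a Pearson r of 0.80 and a Spearman rho of 0.75, and 43 members (91.5%) had the same sign in both. Over all 13233 genes the r was 0.85 and the rho 0.78, and 79.6% had the same sign. These are correlations across genes, which are not independent replicates, and the points of each axis share 2 libraries.

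The members are taken in the order of their roles, from transcription of ribosomal RNA to assembly. The median log2 fold change of the Pol I group, 7 genes with Myc, was −0.75 in OB against control and −0.45 in siDNMT1_OB against siDNMT1. For the genes named in full, counts and CPM are given in the order control, siDNMT1, OB and siDNMT1_OB. Myc (chr15:61985391-61990374) had 1211, 1052, 467 and 736 counts, or 44.6, 41.1, 20.7 and 27.5 CPM. Its level in OB was 46.3% of that in control, a log2 fold change of −1.11 (95% interval −1.27 to −0.96), and in siDNMT1_OB it was 67.0% of that in siDNMT1. Both induced libraries lay below both untreated ones for Myc.

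Polr1a, the largest catalytic subunit of Pol I, had 3233, 2546, 1463 and 1819 counts, or 119, 99.4, 64.7 and 68.0 CPM. Its log2 fold change was −0.88 in OB against control and −0.55 with DNMT1 siRNA, and the 2 induced libraries were close to each other (0.07, 95% interval −0.03 to 0.17). Polr1b, the other large subunit, was at 29.1, 26.2, 16.4 and 20.9 CPM. Polr1c, a subunit that Pol I shares with Pol III, was at 60.0, 61.1, 35.6 and 38.6 CPM and differed little between the siRNAs in either state. Polr1e, a Pol I subunit that helps initiation, had the fewest reads of any member summed over the 4 libraries, at 19.0, 16.6, 13.9 and 16.1 CPM.

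Ubtf, which binds the ribosomal DNA and holds it open, had 5901, 6248, 3519 and 4767 counts, or 218, 244, 156 and 178 CPM. It was higher with DNMT1 siRNA in both states, by 0.16 (95% interval 0.11 to 0.22) untreated and 0.20 (95% interval 0.13 to 0.26) after OB, and its OB effects of −0.48 and −0.45 were alike. Rrn3, which brings Pol I to the promoter, showed the smallest effect of the group in OB against control, −0.34, with 62.9, 61.5, 49.7 and 53.4 CPM. The 7 genes were therefore all lower in OB than in control, over a range from −1.11 to −0.34.

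The box C/D snoRNP core, which methylates ribosomal RNA, was the group with the lowest median in OB against control, −1.37. All 3 of its members were lower by more than 1. Nop56 (ENSMUSG00000027405, chr2:130274430-130279313), a scaffold protein of the particle, had the lowest value of the 47 members. It had 5054, 4180, 1403 and 2572 counts, or 186, 163, 62.0 and 96.1 CPM, so OB held 33.3% of the control level (−1.59, 95% interval −1.67 to −1.50) and siDNMT1_OB held 58.9% of the siDNMT1 level (−0.76, 95% interval −0.83 to −0.69). The difference between those effects, 0.82 (95% interval 0.71 to 0.93), was the largest of the set as the libraries are labelled. With the labels of the induced pair exchanged, Nop56 was at −0.95 in OB against control, above Fbl at −1.12, and its difference was −0.44.

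Because Nop56 stood at the low end, the 250 bases before its RefSeq start are given (GRCm38.p6, chr2:130274162-130274411, plus strand). They hold no CACGTG, and no capitals are used.
Nop56: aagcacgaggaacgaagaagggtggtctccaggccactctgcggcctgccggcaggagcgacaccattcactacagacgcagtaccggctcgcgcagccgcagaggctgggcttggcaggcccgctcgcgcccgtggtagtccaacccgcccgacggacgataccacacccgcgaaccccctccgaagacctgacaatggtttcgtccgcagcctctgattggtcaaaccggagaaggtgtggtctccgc

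Fbl, the methyltransferase of the particle, had 3187, 2626, 1029 and 1441 counts, or 117, 102, 45.5 and 53.8 CPM. Its level in OB was 38.7% of control and in siDNMT1_OB 52.5% of siDNMT1, so it was low in both induced libraries and its −0.93 was the lowest value of any member in the second pair. Nop58, the partner scaffold of Nop56, had 4161, 4033, 1584 and 2813 counts, or 153, 157, 70.0 and 105 CPM. The untreated libraries were alike for Nop58 (0.04, 95% interval −0.03 to 0.10), and siDNMT1_OB stood 0.59 above OB (95% interval 0.50 to 0.68). Exons of Nop56 and Nop58 overlap annotated snoRNAs or small RNA genes that had 0 counts in all libraries, and Nop56 shares 5 exon bases with Idh3b.

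The box H/ACA core turns uridine into pseudouridine in ribosomal RNA, and with the snoRNP chaperone Nolc1 this group of 5 had medians of −0.89 and −0.39 in the OB comparisons. Dkc1, the pseudouridine synthase, had 1861, 1800, 716 and 1159 counts, or 68.6, 70.3, 31.7 and 43.3 CPM, and was at 46.1% of control in OB. Nhp2, a core protein that binds the guide RNA, had 1746, 1320, 698 and 1053 counts, or 64.4, 51.5, 30.9 and 39.3 CPM. It was at 47.9% of control in OB but at 76.4% of siDNMT1 in siDNMT1_OB, a difference of 0.67 (95% interval 0.50 to 0.84). 

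Gar1, another core protein, was at 32.6, 30.2, 17.7 and 21.1 CPM, and Nolc1 at 100, 87.1, 53.9 and 68.8 CPM. Both had OB as the lowest library and control as the highest. Nop10, the smallest core protein, departed from its partners with 981, 666, 690 and 719 counts, or 36.2, 26.0, 30.5 and 26.9 CPM. As labelled, its OB effects were small, −0.24 (95% interval −0.39 to −0.10) and 0.05 (95% interval −0.11 to 0.20), and its 2 DNMT1 siRNA libraries were its lowest. With the labels of the induced pair exchanged, the OB effects of Nop10 were −0.43 and 0.23.

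**Figure D2:**
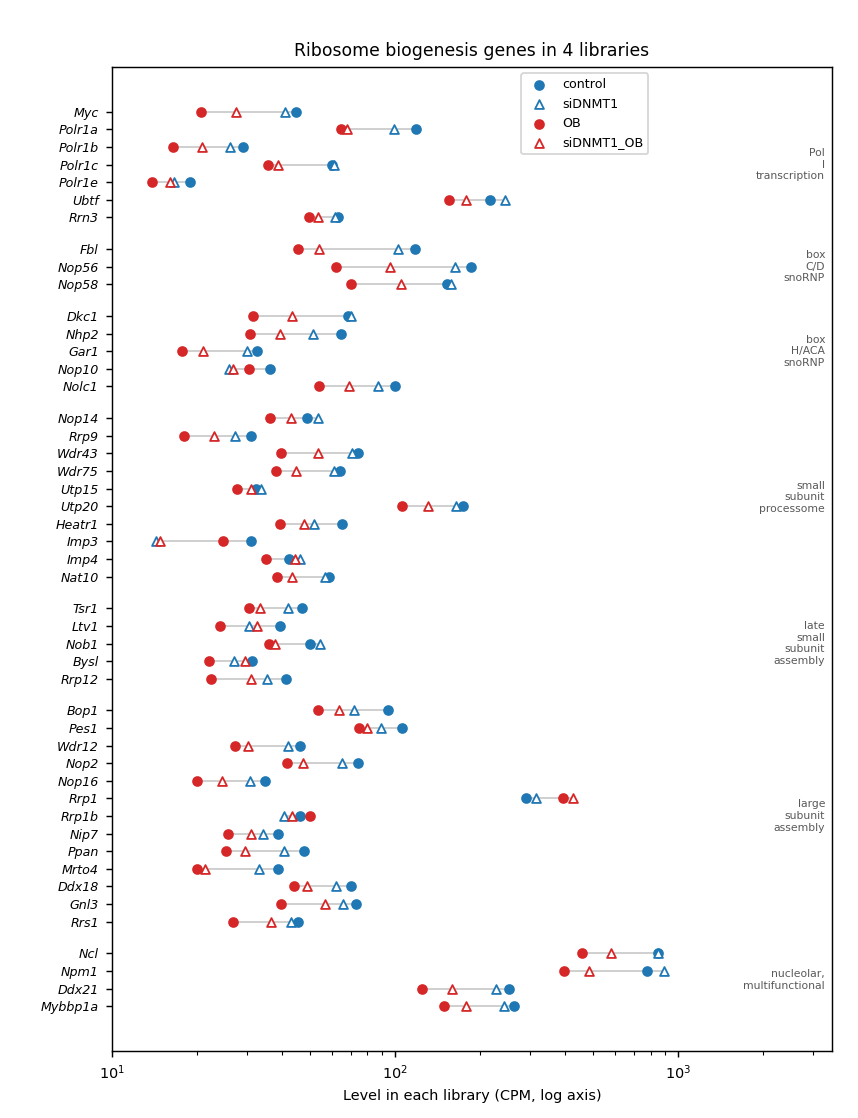
Level of the 47 members in the 4 libraries, in CPM on a log axis, with circles for control siRNA and triangles for DNMT1 siRNA, blue for untreated and red for OB medium. The genes are grouped by role. The red circle (OB) is the lowest of the 4 in 43 members, and Rrp1 is reversed, with both red points on the right.

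The small subunit processome, the large complex that forms on the precursor RNA and prepares the small subunit, had 10 members with medians of −0.66 and −0.28. All 10 were lower in OB than in control, 6 of them by 0.5 or more. The lowest were Wdr43 and Rrp9. Wdr43, of the subcomplex that joins the RNA first, had 2004, 1814, 900 and 1431 counts, or 73.9, 70.8, 39.8 and 53.5 CPM, and was −0.89 in OB against control and −0.40 with DNMT1 siRNA. Rrp9, which holds the guide snoRNA of the processome, had 843, 698, 409 and 615 counts, or 31.1, 27.2, 18.1 and 23.0 CPM.

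Wdr75, Utp15 and Heatr1 belong to the same early subcomplex as Wdr43 but differed in size of effect. Wdr75 was at 63.9, 61.2, 38.2 and 44.6 CPM, Heatr1 at 65.3, 51.8, 39.4 and 47.6 CPM and Utp15 at 32.4, 33.8, 27.8 and 31.1 CPM. Their log2 fold changes in OB against control were −0.74 for Wdr75, −0.73 for Heatr1 and −0.22 for Utp15, the smallest decrease among the 45 members that were lower. Utp20, a large scaffold of the processome, was at 174, 164, 106 and 131 CPM, and Nat10, which acetylates ribosomal RNA, at 58.5, 56.8, 38.5 and 43.3 CPM.

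Nop14, a small subunit factor, had 1327, 1369, 821 and 1152 counts, or 48.9, 53.4, 36.3 and 43.0 CPM. It was above control in siDNMT1 by 0.13 (95% interval 0.02 to 0.24) and above OB in siDNMT1_OB by 0.25 (95% interval 0.12 to 0.38). Imp4, which helps the guide snoRNA pair with the precursor, was at 42.4, 46.2, 35.1 and 44.4 CPM, so siDNMT1_OB was above control. 

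Imp3 (ENSMUSG00000032288, chr9:56937475-56938398), the partner of Imp4, lay furthest from the other members in both siDNMT1 comparisons. It had 842, 367, 559 and 398 counts, or 31.0, 14.3, 24.7 and 14.9 CPM. Both DNMT1 siRNA libraries were below both control siRNA libraries. The log2 fold changes were −1.11 (95% interval −1.30 to −0.94) untreated and −0.73 (95% interval −0.92 to −0.54) after OB. As the libraries are labelled, its OB effects were small at −0.33 and 0.05. With the labels of the induced pair exchanged they were −1.06 and 0.78, a difference of 1.84. Imp3 was the 1 member lower by 0.5 or more in siDNMT1 against control, and its exons overlap no other annotated gene. Imp3, Nop10 and Nhp2 were the 3 members with the shortest exon length, 924, 1109 and 1146 bases. The 981 genes compared that were no longer than 1146 bases had a median of −0.09 in siDNMT1 against control and −0.04 in siDNMT1_OB against OB, beside 0.00 and 0.02 in the 12252 longer genes, and the part of length in the Imp3 values was not tested.

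As the member that stood apart by siRNA, Imp3 is shown with the 250 bases before its RefSeq start (GRCm38.p6, chr9:56937250-56937499, plus strand), which hold no CACGTG. Its last bases overlap the start of the gene as the count table places it.
Imp3: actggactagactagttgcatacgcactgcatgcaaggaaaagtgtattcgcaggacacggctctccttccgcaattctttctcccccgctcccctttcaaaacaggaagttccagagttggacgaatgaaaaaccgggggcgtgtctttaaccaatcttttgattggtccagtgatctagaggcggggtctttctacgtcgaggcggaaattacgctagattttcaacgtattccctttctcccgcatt

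Late small subunit assembly had 5 members, with medians of −0.62 in OB against control and −0.20 in siDNMT1_OB against siDNMT1. Rrp12, an export and processing factor, had 1119, 910, 509 and 829 counts, or 41.3, 35.5, 22.5 and 31.0 CPM, with effects of −0.87 and −0.20. Ltv1, which leaves the small subunit as it matures, had 1065, 781, 548 and 874 counts, or 39.3, 30.5, 24.2 and 32.7 CPM. Ltv1 was −0.69 in OB against control and 0.10 (95% interval −0.04 to 0.24) with DNMT1 siRNA, a difference of 0.79 (95% interval 0.59 to 1.00), so OB was below control for Ltv1 while siDNMT1_OB was not below siDNMT1.

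Bysl, a nuclear factor of the small subunit, showed the same form as Ltv1, at 31.2, 27.1, 22.1 and 29.6 CPM, with −0.50 and 0.13, but shares 361 exon bases with Ccnd3 on the opposite strand. Nob1, the nuclease that makes the final cut of the small subunit RNA, took the other form, at 50.1, 54.3, 36.0 and 37.7 CPM, with OB effects of −0.48 and −0.52 that did not differ beyond counting error (−0.05, 95% interval −0.22 to 0.12). Tsr1, which blocks early use of the new subunit, was at 46.9, 42.1, 30.6 and 33.4 CPM, and 1240 of its exon bases are shared with Srr on the opposite strand.

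Large subunit assembly was the largest group, with 13 members and medians of −0.77 and −0.24. Of these 13, 11 were lower in OB than in control, 10 of them by 0.5 or more. The lowest were Mrto4 and Ppan. Mrto4, a placeholder for a protein of the ribosomal stalk, had 1049, 850, 453 and 573 counts, or 38.7, 33.2, 20.0 and 21.4 CPM, and was at 51.8% of control in OB and 64.5% of siDNMT1 in siDNMT1_OB. Ppan, an early large subunit factor, had 1301, 1038, 574 and 789 counts, or 48.0, 40.5, 25.4 and 29.5 CPM.

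Bop1, Pes1 and Wdr12 form 1 complex that processes the large subunit RNA. Bop1 had 2561, 1842, 1214 and 1698 counts, or 94.4, 71.9, 53.7 and 63.5 CPM, with OB effects of −0.81 and −0.18. Pes1 was at 106, 89.7, 74.9 and 79.5 CPM with −0.50 and −0.17, and Wdr12 at 46.4, 41.9, 27.2 and 30.3 CPM with −0.77 and −0.47. All 3 were lower in OB than in control, Pes1 by just under 0.5 before rounding, and their order of levels was control, siDNMT1, siDNMT1_OB and OB.

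Gnl3 (nucleostemin), a GTPase of dividing and stem cells, had 1982, 1683, 896 and 1517 counts, or 73.1, 65.7, 39.6 and 56.7 CPM. Its OB effects were −0.88 (control siRNA) and −0.21 (DNMT1 siRNA), a difference of 0.67 (95% interval 0.52 to 0.82). Among the other factors, Nop2, an RNA methyltransferase, was at 74.0, 64.9, 41.6 and 47.5 CPM, and Ddx18, an RNA helicase, at 69.8, 62.2, 44.2 and 49.0 CPM. Nop16, a nucleolar assembly factor, was at 34.7, 30.8, 20.0 and 24.6 CPM, Nip7, an RNA processing factor, at 38.8, 34.2, 25.8 and 31.1 CPM, and Rrs1, which recruits the small RNA of the large subunit, at 45.6, 43.2, 26.8 and 36.6 CPM. In each of these 5 the OB library was the lowest.

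Rrp1 and Rrp1b, related nucleolar proteins of large subunit processing, were the 2 members that were not lower in OB. Rrp1 (chr10:78400384-78413043) had 7857, 8100, 8845 and 11359 counts, or 290, 316, 391 and 424 CPM. It was higher in OB by 0.43 (95% interval 0.39 to 0.48) and in siDNMT1_OB by 0.42 (95% interval 0.38 to 0.47), nearly the same size, and its exons overlap no other gene. Rrp1b had 1259, 1040, 1136 and 1156 counts, or 46.4, 40.6, 50.2 and 43.2 CPM, with OB effects of 0.11 (95% interval 0.00 to 0.23) and 0.09 (95% interval −0.03 to 0.21), whose counting intervals included 0.

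The multifunctional nucleolar proteins include Ncl and Npm1, the 2 members with the highest CPM, and all 4 were lower in OB, with medians of −0.93 and −0.53. Npm1 (nucleophosmin), a histone and ribosomal protein chaperone, had 21139, 22825, 8953 and 12999 counts, or 779, 891, 396 and 486 CPM. In siDNMT1 Npm1 was 0.19 above control (95% interval 0.17 to 0.22), the highest value of a member there, and its OB effects of −0.98 and −0.87 were close, a difference of 0.10 (95% interval 0.05 to 0.15). Ncl (nucleolin), which binds the precursor RNA, was at 847, 849, 457 and 580 CPM, level between control and siDNMT1 and 0.34 higher in siDNMT1_OB than in OB.

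Ddx21, an RNA helicase of Pol I and Pol II transcription, had 6848, 5808, 2829 and 4273 counts, or 252, 227, 125 and 160 CPM, and was at 49.5% of control in OB. Mybbp1a, which binds transcription factors in the nucleolus, was at 264, 244, 149 and 178 CPM. Per transcript length (TPM), Npm1 was the highest member in every library, at 839 in control and 459 in OB, and Wdr12 the lowest, at 11.1 and 7.04. The members' median TPM was 48.6, 46.8, 32.0 and 38.0 in the same order of libraries, beside 18.7, 19.6, 19.8 and 20.1 for all genes compared.

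DNMT1 siRNA alone was accompanied by small differences in untreated cells. In siDNMT1, 36 of 47 members were lower than in control, beside 50.3% of all genes, with a median of −0.16. Counting intervals lay below 0 in 30 members, beside 26.8% of all genes, and above 0 in 6, beside 26.0%. Imp3 was the single member lower by 0.5 or more, where 6.08% of all genes were. The lowest after Imp3 were Nop10 (−0.48) and Bop1 (−0.39), and the highest were Npm1 (0.19), Ubtf (0.16) and Nop14 (0.13).

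After OB induction the direction was the other way. The induced pair was also taken longer after transfection, so state and time since the siRNA cannot be told apart. In the library labelled siDNMT1_OB, 44 of 47 members were higher than in OB, beside 52.2% of all genes, with a median of 0.25. Counting intervals lay above 0 in 37 members, beside 27.6% of all genes, and below 0 in 3, beside 23.6%. The 3 members higher by 0.5 or more were Nop56 (0.63), Nop58 (0.59) and Gnl3 (0.52), and 8.43% of all genes were. The 3 that were lower were Imp3 (−0.73), Rrp1b (−0.22) and Nop10 (−0.18). Dnmt1 mRNA was not lower in this library than in OB, so the direction is that of the library and its label. The siDNMT1 effects of the 2 states, which share no library, had a Pearson r of 0.25 and a Spearman rho of 0.14 over all genes, with the same sign in 53.3%. Over the 47 members the r was 0.51 and the rho 0.085, with the same sign in 14 (29.8%), and without Imp3 the r was 0.098. With the labels of the induced pair exchanged, each of these correlations takes the opposite sign by construction.

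**Figure D3:**
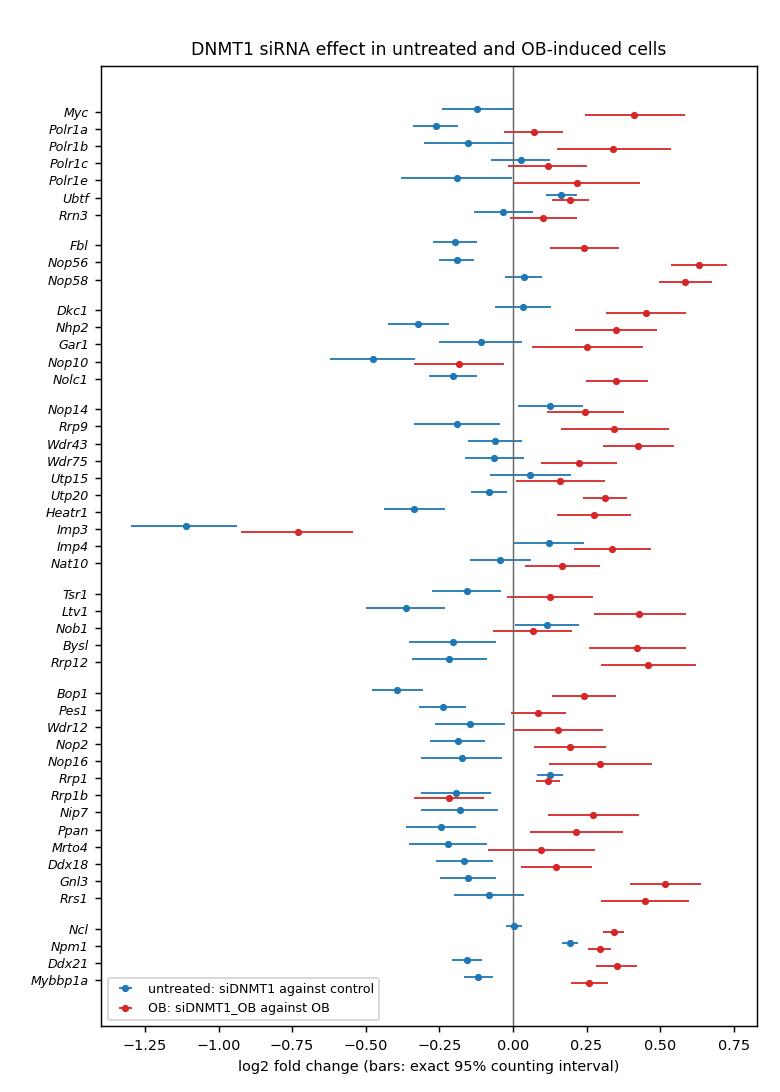
Log2 fold change of each member with DNMT1 siRNA, untreated (blue, siDNMT1 against control) and in OB medium (red, siDNMT1_OB against OB), with exact 95% counting intervals as bars. Red points lie right of 0 in 44 of 47 members and blue points left of 0 in 36, and Imp3 is far left in both.

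Below control in siDNMT1 and above OB in siDNMT1_OB was the form of 33 members, beside 24.6% of all genes, though no member reached 0.5 in both. As a whole, 31 members had their levels in the order control, siDNMT1, siDNMT1_OB and OB from high to low, an order seen in 15.3% of all genes. A further 9 had siDNMT1 above control and the same order otherwise, beside 9.13% of all genes. In 40 members both induced libraries were below both untreated ones, beside 33.8% of all genes.

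Other genes of the pathway were read from lists of their own. Over all genes, 49.3% were lower in OB than in control and 18.3% were lower by 0.5 or more. Of 35 other small subunit factors, all 35 were lower in OB than in control, 14 by 0.5 or more, with a median of −0.33 and, with DNMT1 siRNA, −0.20. Those furthest from 0 were Wdr36 (−1.21 and −0.51) and Mphosph10 (−1.08 and −0.15), both processome proteins. Of 43 other large subunit factors compared out of 44, 40 were lower, 18 by 0.5 or more, with medians of −0.44 and −0.19. Ruvbl2, a helicase used in snoRNP assembly, was −1.17 and −0.70, and Mak16 was −1.04 and −0.46. 

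Of 27 other Pol I and Pol III genes, 20 were lower, with medians of −0.22 and −0.17. Those lower by 0.5 or more were 6 of 27 in OB against control, beside 18.3% of all genes. In siDNMT1_OB against siDNMT1 they were 1 of 27, beside 11.4%. Polr3g, the Pol III subunit of stem and dividing cells, was −1.61 and −0.39, and Taf1d, of the Pol I promoter factor, −0.87 and −0.65. Of 16 snoRNA host genes compared, 13 were lower, with medians of −0.23 and −0.39, and Snhg1 (−0.87 and −0.65) and Gas5 (−0.75 and −0.57) were furthest from 0.

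The ribosomal proteins themselves showed a like effect with both siRNAs. All 79 were lower in OB than in control and 77 of 79 were lower in siDNMT1_OB than in siDNMT1. Their medians were −0.40 and −0.38, with a median difference between the OB effects of −0.01, where the 47 members had 0.38. Whether the lists differ was not tested. Rps2, a protein of the small subunit, was −0.71 and −0.78. Reads of ribosomal protein genes can be split with their copies, and 298 genes named as ribosomal protein pseudogenes held 102347 to 176831 counts per library. For the members 2 such genes held at most 17.

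Of 11 genes of the MYC network compared out of 14, Mxd3 and Mxd4, partners of MAX that compete with MYC, were furthest from 0 and went in opposite directions. Mxd3 was at 32.6, 27.0, 7.61 and 17.6 CPM and Mxd4 at 121, 169, 318 and 267 CPM. In OB against control 4 of the 11 were lower and 7 higher, with a median of 0.13, and the median was 0.16 in siDNMT1_OB against siDNMT1.

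Proliferation genes moved with the set and further. All 20 of that list were lower by 1 or more in OB against control, with a median of −2.26, and the median was −1.08 in siDNMT1_OB against siDNMT1. With DNMT1 siRNA their median was −0.23 untreated and 0.99 in the library labelled siDNMT1_OB against OB. Summed, the untreated libraries held 3706 CPM (control) and 3279 (siDNMT1) and the induced ones 801 (OB) and 1543 (siDNMT1_OB), which is the order of the members' summed level. Mcm5, a subunit of the replicative helicase, was at 188, 138, 26.9 and 58.0 CPM and Bub1, a mitotic checkpoint kinase, at 97.6, 80.3, 15.9 and 33.1 CPM. The part of cell division in the members' values was not tested.

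**Figure D4:**
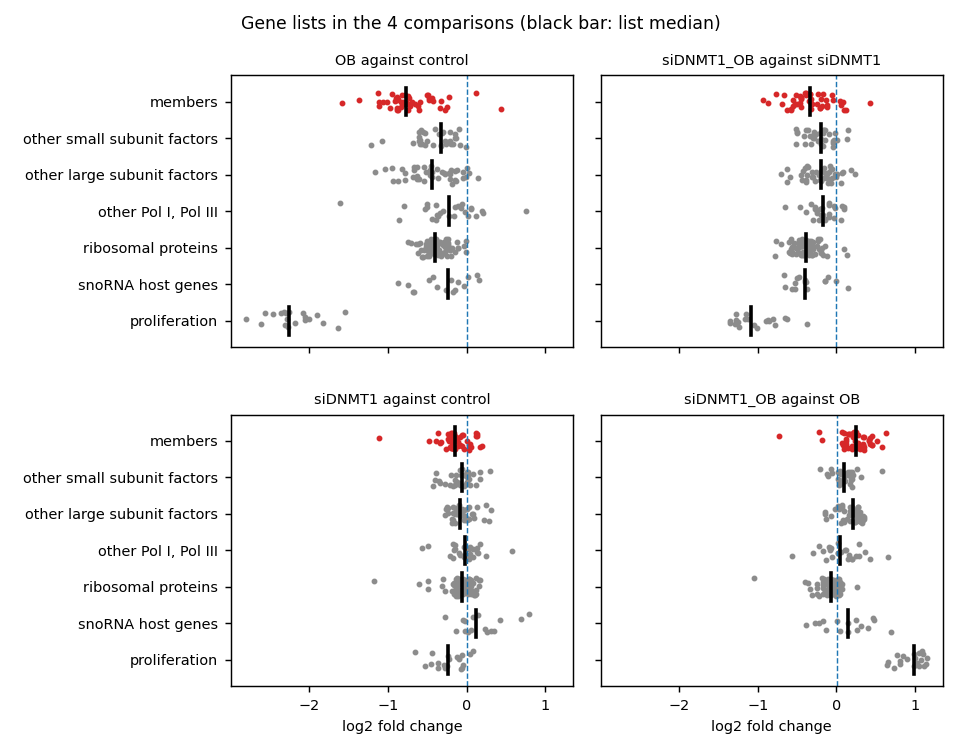
Log2 fold change of each gene of the member set (red) and of 6 other lists (grey) in the 4 comparisons, with black bars at list medians and a blue dashed line at the median of all genes. The member median is −0.77 in OB against control and −0.34 with DNMT1 siRNA, ribosomal proteins stand near −0.40 and −0.38, and the proliferation list lies furthest from 0.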

How the data were processed

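Poly(A) RNA of 4 libraries, 1 per group as the labels give them, was compared. Per the labels and the methods, the authors trimmed reads with Trimmomatic, aligned them to mm10 with HISAT2 and deposited raw counts per gene from featureCounts, with no normalization. Tool versions, strand use and the treatment of reads with several positions are not given in the sources used here, so reads of overlapping genes cannot be told apart.

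From the deposited counts, TMM factors (0.991 to 1.01) were computed with edgeR 4.0.16 on genes whose CPM averaged 1 or more over the libraries. These 13233 genes held at least 99.7% of each library's counts. Log2 fold changes of CPM used a prior count of 2. Intervals of a fold change are exact (Clopper-Pearson) 95% intervals, and those of a difference between 2 OB effects are Wald intervals from the 4 counts. The fold change intervals had a median half-width of 0.12 on the log2 scale. Reads carry no molecular identifiers, so intervals cover counting error only, not the spread between cultures. TPM used the exon length given with the counts. The calculation was run on simulated counts with known folds and counting error only, which cannot test the spread between cultures.

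Counts of members past log2 sizes of 0.5 and 1 are set beside the share of all genes past the same size. Coordinates are those of the table. For 45 of 47 members they equal GENCODE M21 (GRCm38). Members and gene lists were chosen with earlier results of these data known. Genes given in full are Myc, the 2 furthest from 0 in OB against control in each of the 7 role groups, the 3 highest and 3 lowest in each siDNMT1 comparison, and members past 1. Of each other pathway list the 2 furthest from 0 in OB against control are named, except for an item that is not reported here. Rrp1 was chosen for full values, and Alpl, Bglap, Sp7 and Ibsp for naming, after they were seen. Alternatives were other scalings, prior counts, filters and subsets of members.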

Additional observations from a re-analysis of the deposited data

Results flagged for a closer look

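The median log2 fold change of the 47 members with DNMT1 siRNA had opposite signs in the 2 states. It was −0.16 in untreated cells (siDNMT1 against control, 36 of 47 members lower) and 0.25 after OB induction (the library labelled siDNMT1_OB against OB, 44 of 47 members higher). The difference was not tested, since each group held 1 library, and Dnmt1 mRNA did not follow the label in the induced pair. The 2 states also differ in time since transfection, which cannot be told apart from the medium. With the 2 induced labels exchanged the second median was −0.25, so both were then below 0. The methylation and DNMT1 protein measures in the study run the way of the labels as given, the protein at a later day.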

How the results depend on the processing

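None of the member medians, member shares and named genes changed direction under these alternatives: median-of-ratios (DESeq2 1.42.0), total count and upper quartile scaling, TMM factors from all genes (chosen after seeing the data), prior counts of 0.5 and 5, no filter or a mean CPM of at least 10, members with no exon overlap and the set without Myc (these 2 for medians and shares only). With protein-coding genes alone as background, which leaves the members' values as they are, no share of all genes moved by over 1.5 times. Other filters moved some of these shares further. With no filter, 20.9% rather than 49.3% of all genes were below 0 in OB against control, and 3.78% rather than 7.1% were lower by 1 or more. In siDNMT1_OB against OB 22.9% rather than 52.2% were then above 0. With a mean CPM of at least 10, 3.99% rather than 6.08% were lower by 0.5 or more in siDNMT1 against control. Under the alternatives listed first, the median of all genes lay between −0.05 and 0.06 in every comparison and changed sign with the setting in all 4. The member median ranged from −0.81 to −0.72 in OB against control, −0.37 to −0.33 in siDNMT1_OB against siDNMT1, −0.16 to −0.13 in siDNMT1 against control and 0.22 to 0.27 in siDNMT1_OB against OB. Members lower by 1 or more in OB against control made up 10.3% to 17.0%, with Npm1 crossing that size when TMM factors came from all genes (−1.02). Among the 29 members with no exon overlap, none (0%) were higher by 0.5 or more in siDNMT1_OB against OB, beside 6.38% of all members, because Nop56, Nop58 and Gnl3 share exons with other genes. Imp3 made up 3.45% of those 29 and 2.13% of all members as the one lower by 0.5 or more in siDNMT1 against control. The E-box share was 7.32% in the 250 bases before the start and 22.0% in 300. The labels of OB and siDNMT1_OB were also exchanged, a setting added after the data were seen, since Dnmt1 mRNA goes against them. Dnmt1 was 0.13 in siDNMT1_OB against OB as labelled, beside −1.01 in siDNMT1 against control. Neither labelling therefore gives the induced pair a fall in Dnmt1 of the untreated size. The study's methylation and DNMT1 protein measures run the way of the labels, the protein at a later day. With the exchange, the member medians were −0.49 in OB against control and −0.64 in siDNMT1_OB against siDNMT1. They were −0.25 in siDNMT1_OB against OB and −0.14 for the difference of the OB effects. In the same order of the OB comparisons, 46.8% and 66.0% of members were lower by 0.5 or more, and 4.26% and 10.6% by 1 or more. In siDNMT1_OB against OB 6.38% were above 0 and 2.13% higher by 0.5 or more, and the difference was above 0 in 23.4%. By construction each value of that comparison turned, to −0.63 for Nop56, −0.59 for Nop58, −0.52 for Gnl3 and 0.73 for Imp3. No paired analysis was possible because replicate numbers cannot pair groups of 1 library. An additive fit of siRNA and medium over the 4 libraries would leave 1 residual degree of freedom, by taking the difference of the OB effects as error, and was not run. Leaving out a library would remove its group. Each member had at least 314 counts in each library. The spread between cultures is unknown for every difference, since no group has a second library.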
